A study of Mus musculus with 11 samples.

Results

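The comparison described here set hippocampal RNA of APP/PS1 mice kept in a rotating magnetic field (RMF) against that of sham-exposed APP/PS1 mice. It used 7 of the 11 libraries of the series, 4 RMF and 3 sham, and 14428 of the 36826 genes in the deposited table. Those genes had an FPKM (fragments scaled by transcript length and library size) of at least 1 in at least 3 of the 11 libraries. All RMF and sham mice carried the APP/PS1 transgenes. RMF mice were kept in a field of 0.4 T on 5 days a week for 12 months, for 3 h a day between 2 and 11 months of age and 6 h a day between 11 and 14 months. Sham mice went through the same schedule with sham magnetic exposure. The 4 remaining libraries came from wild-type C57BL/6J mice (WT) of the same age. They entered the fit to estimate the spread between libraries, and their levels are given beside those of RMF and sham. All mice were 14 months old when the tissue was taken.

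APP/PS1 mice carry mutant transgenes, make an excess of amyloid-beta peptide, and form plaques that microglia and astrocytes surround. The labels name neither the promoters of the transgenes nor the sex of the mice. Y-linked Ddx3y was present at 8460 to 10781 counts in each RMF and sham library. The cell type is labelled as neurons, but no step that isolates them is described, and markers of glia were present at high levels. Gfap, the intermediate filament of astrocytes, averaged 831 ± 38.8 CPM in RMF libraries (SD, n = 4) and 756 ± 184 CPM in sham libraries (SD, n = 3). Mbp, a protein of oligodendrocyte myelin, averaged 3066 ± 1147 CPM in RMF libraries and 3225 ± 1045 CPM in sham libraries. CPM is a gene's count relative to its library's total , in counts per unit of total, scaled by the TMM factors of edgeR. The tissue is therefore described as whole hippocampus, and in such bulk tissue fewer cells of a type and less RNA per cell cannot be told apart. Whether libraries stand for single animals is not stated, and the protocol mentions pooled RNA. The p-values therefore reflect variation among these libraries, which may be technical.

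Sham replicate 4 stood apart. Many values that moved by over 1.5 times when it was left out are given with and without it. A value given once need not be stable to leaving it out. On the first principal component of the 7 APP/PS1 libraries, which held 31.4% of the variance, sham 4 scored -43.8 and the other 6 libraries lay between -11.2 and 21.4. Transcripts of the mitochondrial genome took 5.92% to 6.55% of counts in RMF libraries, 5.93% and 6.05% in sham 1 and sham 3, and 9.53% in sham 4. Library totals lay between 68124548 and 70786786 counts. Beyond sham 4, RMF 1 held more myelin transcripts than the other RMF libraries, with Mbp at 4778 CPM against 2381 to 2647 CPM. WT 3 had the lowest median correlation with its own group of the 11 libraries, 0.956. Labels number the sham libraries 1, 3 and 4.

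No gene passed the threshold in edgeR's quasi-likelihood test between RMF and sham. The smallest p adjusted by the Benjamini-Hochberg method over all 14428 genes was 0.72, so 0% of genes were called at 0.05. At an unadjusted p under 0.05 the edgeR test found 994 genes, of which 607 (4.21% of all tested) were higher in RMF and 387 (2.68%) lower. DESeq2 called 16 genes (0.111%), 12 higher and 4 lower in RMF. The median gene had a 95% confidence interval of 0.31 to either side on the log2 scale, and 422 genes had a fitted difference beyond 1.5-fold in either direction, 231 higher and 191 lower. For 855 genes (5.93%) every RMF library lay above every sham library, and for 681 (4.72%) every RMF library lay below.

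Leaving out sham 4 gave 0 genes called by edgeR, with a smallest adjusted p of 0.66, and 588 genes at an unadjusted p under 0.05. Of these, 330 (2.29%) were higher and 258 (1.79%) lower in RMF. Of the 607 genes first found higher, 215 were found higher again, which is 35.4% of the larger list and 65.2% of the smaller. Of the 387 found lower, 131 were found lower again, 33.9% of the larger list and 50.8% of the smaller. Against sham 1 and sham 3 alone, all RMF libraries lay above for 1564 genes (10.8%) and below for 1429 (9.9%). DESeq2 without sham 4 called 11 genes, all higher in RMF, and 1 gene, Gpld1, was called by DESeq2 both with and without sham 4. Sham 4 was the lowest sham library for 572 of the 855 genes with all RMF libraries above (66.9%), and the highest for 387 of the 681 with all RMF libraries below (56.8%). Results below are therefore differences that edgeR did not call at the adjusted threshold, and DESeq2 calls are named as such.

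Slc8b1, the mitochondrial sodium-calcium exchanger that lets calcium out of the matrix, had the smallest edgeR p among the named protein-coding genes higher in RMF. It reached 9.02, 9.02, 8.42 and 9.94 CPM in the RMF libraries, against 4.86, 6.62 and 5.05 CPM in sham 1, 3 and 4, with WT at 6.76 ± 0.448 CPM (SD, n = 4). The groups did not overlap. The log2 difference was 0.72 ± 0.14 (SE), with an edgeR adjusted p of 0.72 and a DESeq2 adjusted p of 0.00906, and it was 0.66 without sham 4. The table places the gene on chromosome 5 at 120649233 to 120672089.

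Ndufa2, an accessory subunit of respiratory complex I, stood at 6.56, 7.05, 7.60 and 7.16 CPM in RMF libraries, against 4.27, 3.71 and 3.62 CPM in sham libraries. All 4 RMF libraries were higher than all 3 sham libraries, and WT averaged 6.62 ± 1.32 CPM. Its log2 difference was 0.88 ± 0.17 (SE; edgeR adjusted p = 0.72, DESeq2 adjusted p = 0.00906) and 0.83 without sham 4.

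Gpld1 encodes a phospholipase that releases proteins from their glycosylphosphatidylinositol anchors and circulates in plasma. It had 46.8, 48.4, 47.7 and 47.6 CPM in RMF libraries, against 37.9, 40.1 and 38.5 CPM in sham libraries, while WT averaged 37.1 ± 1.20 CPM. The spread within each group was small beside the gap between RMF and sham, and RMF also lay above WT. The fold was 1.23, with a log2 difference of 0.30 ± 0.061 (SE). The DESeq2 adjusted p was 0.00906 with all libraries and 0.0476 without sham 4, whereas edgeR's adjusted p was 0.72. The table gives chromosome 13, 25127135 to 25176484.

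Asnsd1, whose product carries an asparagine synthetase domain, was at 14.4, 15.3, 14.3 and 14.3 CPM in RMF libraries, against 11.7, 10.4 and 9.22 CPM in sham libraries, a log2 difference of 0.48 (0.40 without sham 4; DESeq2 adjusted p = 0.0212). Ric8a, a chaperone and exchange factor of G protein alpha subunits, was at 54.9 ± 1.07 CPM in RMF libraries and 46.1 ± 1.12 CPM in sham libraries, a log2 difference of 0.25 (DESeq2 adjusted p = 0.0294). Neither gene's RMF values overlapped its sham values, and WT averaged 12.7 ± 0.662 CPM for Asnsd1 and 51.6 ± 1.64 CPM for Ric8a.

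Among protein-coding genes lower in RMF, Opcml had the smallest edgeR p. It encodes a member of the IgLON family of neural adhesion molecules. RMF libraries held 203, 225, 224 and 214 CPM, against 264, 257 and 290.2 CPM in sham libraries, and WT averaged 237 ± 5.45 CPM. All RMF values lay under all sham values. The log2 difference was -0.32 ± 0.066 (SE; edgeR adjusted p = 0.72, DESeq2 adjusted p = 0.0122), and -0.27 without sham 4. The gene lies on chromosome 9 at 27702071 to 28836706 in the table.

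Ankrd29, an ankyrin repeat gene, had 25.7, 26.9, 29.0 and 22.8 CPM in RMF libraries, against 32.5, 36.5 and 37.1 CPM in sham libraries. The log2 difference was -0.44 (DESeq2 adjusted p = 0.0212), and WT, at 26.6 ± 1.05 CPM, lay beside RMF. The other 2 genes called lower by DESeq2 were processed pseudogenes, Gm12428 (log2 difference -0.51) and Gm15542 (-0.53). Their reads may belong to the parent genes, since the handling of reads with several matches is not given, and the same holds for the pseudogenes called higher, Gm12751 (0.73) and Gm7664 (1.75).

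An unnamed gene, ENSMUSG00002074930, annotated as a miscellaneous RNA on chromosome 5 at 112363373 to 112363733, was nearly absent from sham libraries. It had 27, 53, 41 and 32 counts in RMF libraries and 1 count in each of the 3 sham libraries, while the WT libraries held 18, 3, 1 and 17 counts. Scaled by the summed library sizes of each group, the RMF to sham ratio was 36.9 (DESeq2 adjusted p = 0.0186, edgeR adjusted p = 0.72). Its 95% counting interval of 12.4 to 181 covers counting error only. The WT libraries covered most of the span between the sham and RMF values.

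Of the 12 genes with the smallest edgeR p in each direction, those lower in RMF also held Taok3, a stress-activated protein kinase, and Pank1, a pantothenate kinase of coenzyme A synthesis. Taok3 was at 57.7, 64.6, 62.9 and 64.2 CPM in RMF libraries, against 76.7, 76.5 and 82.5 CPM in sham libraries, a log2 difference of -0.33. Pank1 had a log2 difference of -0.36. Dynlt3, a light chain of the dynein motor, was at 128, 128, 127 and 111 CPM in RMF libraries, against 144, 148 and 165 CPM in sham libraries (-0.30). Cep162, a centriole and ciliary protein, differed by -0.41, and by -0.27 without sham 4. In Gm8210, a processed pseudogene, the difference of -3.67 rested on sham 4 alone, at 19.2 CPM against 0.738 and 0.696 CPM in sham 1 and 3, and was -0.42 without it.

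**Figure D1:**
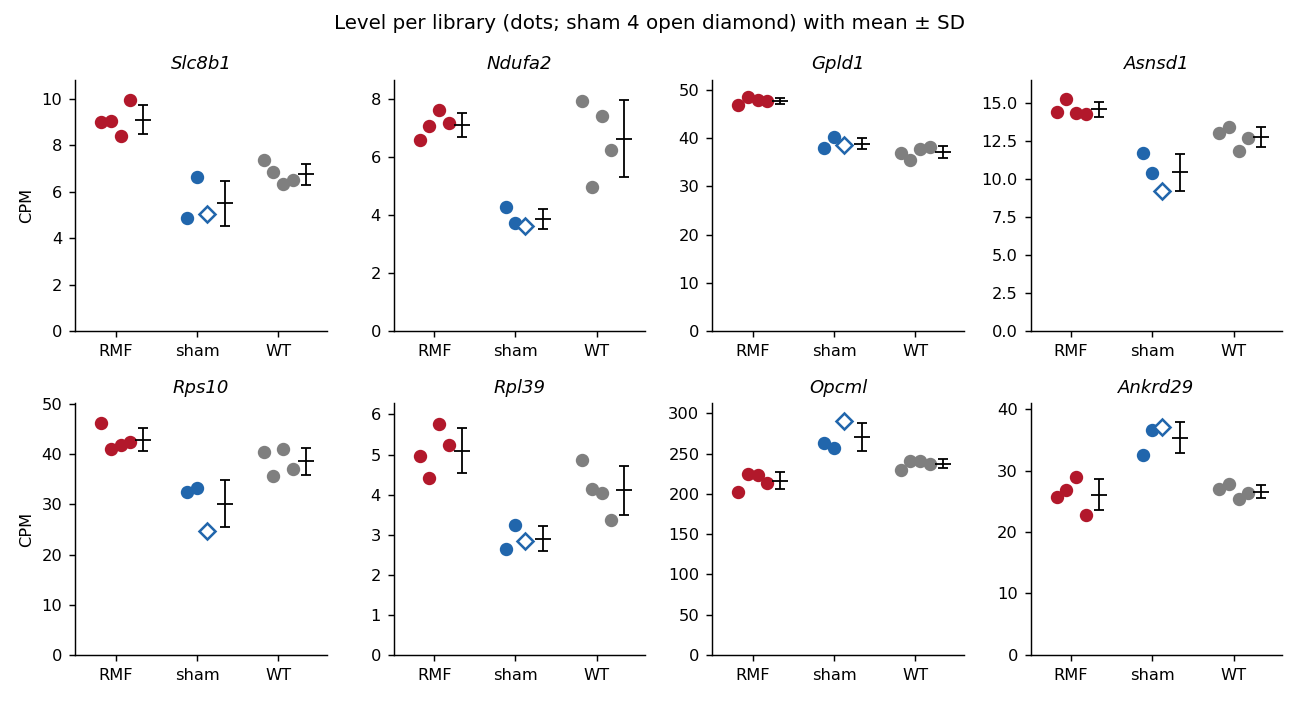
Level in CPM of Slc8b1, Ndufa2, Gpld1, Asnsd1, Rps10, Rpl39, Opcml and Ankrd29 in each RMF, sham and WT library, with the group mean and SD and sham 4 as an open diamond. In the 6 genes higher in RMF each RMF point is above each sham point, and in Opcml and Ankrd29 each is below.

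Genes of the cytosolic ribosome and of the nuclear part of the respiratory chain had higher means in RMF in nearly every member. Ribosomal proteins form the small and large subunits that translate mRNA, and nuclear genes supply most subunits of the 5 complexes with which mitochondria make ATP. Both sets are short, abundant housekeeping transcripts. Promoters of some members of each set carry sites for factors of the ETS family, and some in the respiratory set carry sites for NRF1. Promoter sequences of some members are shown here because ribosomal and respiratory genes lay higher together, and only members with a match in the printed bases were picked. The letters CCGGAAG, an ETS-type core, were searched on both strands in the 250 bases before the start of each gene, in RefSeq windows of build GRCm38.p6. They were found in 18 of the 58 ribosomal protein genes with a window (31%), 8 of 31 nuclear genes of complexes II to V (25.8%), 3 of 33 of complex I (9.09%), 1 of 20 postsynaptic genes (5%) and 0 of 24 presynaptic genes, against 1906 of 27025 promoters in all (7.05%). A second search used GCGCATGC, the core of the NRF1 motif, whose forward and reverse matches can overlap each other. It was in 0 of 58 ribosomal, 3 of 33 complex I (9.09%), 6 of 31 complexes II to V (19.4%), 0 of 20 postsynaptic and 2 of 24 presynaptic promoters (8.33%), against 626 of all (2.32%). TATAAA was in 2 of 58 ribosomal promoters (3.45%), 4 of 33 of complex I (12.1%) and 1 of 31 of complexes II to V (3.23%). It was in 1 of 20 postsynaptic (5%) and 1 of 24 presynaptic promoters (4.17%), against 3504 of all (13%). A match describes the letters in the window and not a bound site. The 100 bases before the start are given 5′ to 3′ on the gene's strand, with the ETS-type core in capitals for the first 5 genes and the NRF1 core in capitals for the last 2, in either orientation.
Rps10: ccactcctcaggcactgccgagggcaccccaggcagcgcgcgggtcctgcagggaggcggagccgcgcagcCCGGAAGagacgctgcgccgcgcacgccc
Rps18: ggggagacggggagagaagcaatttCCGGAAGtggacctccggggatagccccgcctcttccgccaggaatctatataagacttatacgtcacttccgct
Rps21: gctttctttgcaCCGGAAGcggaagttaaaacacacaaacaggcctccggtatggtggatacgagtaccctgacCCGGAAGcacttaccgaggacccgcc
Cox6b1: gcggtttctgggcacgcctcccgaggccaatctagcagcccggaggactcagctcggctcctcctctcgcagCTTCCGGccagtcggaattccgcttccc
Uqcr11: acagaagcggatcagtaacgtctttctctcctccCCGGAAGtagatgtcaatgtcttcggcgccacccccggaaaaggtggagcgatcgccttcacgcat
Ndufa11: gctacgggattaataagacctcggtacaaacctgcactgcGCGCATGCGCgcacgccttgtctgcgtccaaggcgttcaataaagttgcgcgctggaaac
Ndufa8: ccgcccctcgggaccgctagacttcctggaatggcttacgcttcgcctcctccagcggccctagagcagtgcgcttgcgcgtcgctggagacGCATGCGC
These windows lie, in the same order, at chr17:27635245-27635344, chr17:33955666-33955765, chr2:180257279-180257378, chr7:30626115-30626214, chr10:80406822-80406921, chr17:56717662-56717761 and chr2:36049339-36049438. Rps21 and Ndufa11 are on the plus strand and the other 5 on the minus strand. Rps21 holds the ETS-type core at 2 places, and Ndufa11 holds the NRF1 core on both strands, overlapping.

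Of 79 ribosomal protein genes tested, 77 had a higher mean in RMF, against 49.5% of all genes. In 45 of the 79 every RMF library lay above every sham library, where 5.93% of all genes did so, and in 0 did all lie below. The median log2 difference was 0.35, with the median of all genes at 0.00. At an unadjusted edgeR p under 0.05, 48 were higher (4.21% of all genes) and 0 lower (2.68%). DESeq2 called 3 (0.111% of all genes), Rps10, Rps3 and Rpl39. Without sham 4 the median was 0.21, 77 of 79 still had a higher mean, all RMF libraries lay above in 46 (10.8% of all genes), and 19 had an edgeR p under 0.05 (2.29% of all genes). Summed over the list, RMF libraries held 7371, 6716, 6668 and 7248 CPM, against 6204, 6242 and 5044 CPM in sham libraries. RMF libraries were above all sham libraries, sham 4 was the lowest, and WT averaged 6727 CPM, inside the RMF range.

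Genes of the small subunit had a median log2 difference of 0.42 over 31 genes, 30 of them above 0, and those of the large subunit 0.32 over 46 genes, 45 of them above 0. Without sham 4 these medians were 0.24 and 0.17. Rps10, of the small subunit, had 46.2, 41.01, 41.9 and 42.5 CPM in RMF libraries, against 32.5, 33.3 and 24.7 CPM in sham libraries. Its log2 difference was 0.51 ± 0.11 (SE; edgeR adjusted p = 0.72, DESeq2 adjusted p = 0.0294) and 0.38 without sham 4, so sham 4 carried part of its size but not its direction. Rps3 had 153, 129, 133 and 138 CPM in RMF libraries, against 108, 105 and 81.7 CPM in sham libraries (0.50, and 0.38 without sham 4; DESeq2 adjusted p = 0.0438).

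Rpl39, a very small protein of the large subunit, had 4.97, 4.42, 5.76 and 5.23 CPM in RMF libraries, against 2.63, 3.23 and 2.85 CPM in sham libraries. Sham 4 was not the lowest here, and the log2 difference was 0.81 with it and 0.79 without it (DESeq2 adjusted p = 0.0186 with it). Rps18 reached 55.0, 49.2, 47.9 and 53.4 CPM in RMF libraries, against 40.4, 40.9 and 30.4 CPM in sham libraries, and Rps21 11.6 to 12.2 CPM in RMF libraries, against 5.66 to 8.90 CPM in sham libraries. Rpl23a had a log2 difference of 0.40. Members of the same ribosome did not all stand apart: Rplp0, of the stalk, had 165 to 189 CPM in RMF libraries, against 156, 174 and 121 CPM in sham libraries, which overlapped (0.22, and 0.08 without sham 4). Rpsa had 342 to 389.7 CPM in RMF libraries, against 354, 374 and 422 CPM in sham libraries, with a log2 difference of -0.06, and 0.01 without sham 4. Ribosomal protein genes have many pseudogenes, so their counts are uncertain where reads match several copies.

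In respiratory complex I, which takes electrons from NADH, 35 of 37 nuclear genes tested had a higher mean in RMF. All RMF libraries lay above in 15 (5.93% of all genes) and below in 0 (4.72%), and 17 were higher at an edgeR p under 0.05 (4.21% of all genes). The median log2 difference was 0.26. Without sham 4 it was 0.13, with 33 of 37 higher, 15 with all RMF libraries above (10.8% of all genes) and 4 higher at p under 0.05 in edgeR (2.29%). Summed levels were 1457, 1433, 1499 and 1505 CPM in RMF libraries, against 1396, 1343 and 1155 CPM in sham libraries, with WT at 1532 CPM. Ndufa11, an accessory subunit, had 26.0, 25.0, 25.7 and 25.9 CPM in RMF libraries, against 23.2, 20.2 and 17.0 CPM in sham libraries (0.35). Ndufa8 differed by 0.30. Ndufv1, which holds the NADH site, had 96.2 to 105 CPM in RMF libraries, against 94.5, 90.5 and 67.7 CPM in sham libraries (0.24, and 0.10 without sham 4). Ndufs1, the largest subunit, had 152 to 161 CPM in RMF libraries, against 156, 154 and 131 CPM in sham libraries (0.09, and 0.01 without sham 4). In both, sham 1 and sham 3 lay near or inside the RMF range and sham 4 lay under it.

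Complexes II to V gave a like picture, with 37 of 39 nuclear genes higher on average in RMF and a median log2 difference of 0.21, or 0.10 without sham 4. All RMF libraries lay above in 14 (5.93% of all genes) and below in 2 (4.72%), and 14 were higher at an edgeR p under 0.05 (4.21%). Without sham 4, 33 of 39 were higher and 8 had an edgeR p under 0.05 (2.29% of all genes). Uqcr11, a small subunit of complex III, had 9.07, 9.67, 10.2 and 11.0 CPM in RMF libraries, against 6.33, 7.28 and 4.31 CPM in sham libraries. The log2 difference was 0.74 ± 0.17 (SE) and 0.55 without sham 4 (DESeq2 adjusted p = 0.0474 with it). Cox6b1, a subunit of cytochrome c oxidase, had 48.0, 47.7, 48.2 and 51.1 CPM in RMF libraries, against 40.4, 37.4 and 28.9 CPM in sham libraries (0.45, and 0.32 without sham 4, where DESeq2 called it). Cox4i1, of the same complex, differed by 0.34 (edgeR adjusted p = 0.72). Sdha, the flavoprotein of complex II, differed by 0.03, and Atp5pb, of the stator of ATP synthase, had 177 to 194 CPM in RMF libraries, against 195 to 202 CPM in sham libraries (-0.10).

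Genes encoded by the mitochondrial genome did not follow the nuclear genes of the respiratory chain. Of 15 such genes tested, 2 had a higher mean in RMF and 13 a lower one, with a median log2 difference of -0.25. Without sham 4, 9 were higher and 6 lower, with a median of 0.02. Their summed level was 65749, 61636, 59028 and 58143 CPM in RMF libraries, against 59478, 61482 and 101732 CPM in sham libraries. Sham 1 and sham 3 lay inside the RMF range and sham 4 far above it. mt-Atp8, of ATP synthase, had 1284 to 1718 CPM in RMF libraries, against 1441, 1753 and 3787 CPM in sham libraries, a log2 difference of -0.70 that became -0.16 without sham 4. mt-Co1, the catalytic subunit of cytochrome c oxidase, had 19722 to 21331 CPM in RMF libraries, against 20068, 19454 and 31983 CPM in sham libraries (-0.22, and 0.04 without sham 4). mt-Nd3 was the exception, with 114, 104, 101 and 90.6 CPM in RMF libraries, against 88.1, 84.1 and 77.0 CPM in sham libraries (0.30, edgeR adjusted p = 0.72).

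Mitochondrial ribosomal proteins, which take part in translating the proteins encoded by the mitochondrial genome, had a higher mean in RMF in 66 of 78. Without sham 4 this was 49 of 78. Their median was 0.10 (0.04 without sham 4), and all RMF libraries lay above in 8 and below in 2, where 5.93% and 4.72% of all genes did so. Mrpl27 differed by 0.55 and Mrpl1 by -0.26. Genes of the proteasome, which degrades tagged proteins, had a median of 0.13 (0.06 without sham 4), with 31 of 39 higher, 13 with all RMF libraries above (5.93% of all genes) and 1 below (4.72%). Psmb3, of its catalytic core, had 30.7 to 35.9 CPM in RMF libraries, against 27.9, 29.8 and 21.6 CPM in sham libraries (0.35, and 0.22 without sham 4). Psme3, of its activator, had 97.2 to 105 CPM in RMF libraries, against 109 to 116 CPM in sham libraries (-0.17).

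Among antioxidant genes 25 of 33 had a higher mean in RMF, the median was 0.10 (0.08 without sham 4), and all RMF libraries lay above in 7 (5.93% of all genes) and below in 0 (4.72%). Gstm5, a glutathione transferase, had 84.4, 78.7, 85.2 and 83.4 CPM in RMF libraries, against 70.7, 69.7 and 57.4 CPM in sham libraries (0.33, edgeR adjusted p = 0.72). Sod1, the copper-zinc superoxide dismutase, had 67.9 to 75.0 CPM in RMF libraries, against 61.6, 64.9 and 47.9 CPM in sham libraries (0.29, and 0.16 without sham 4). Cat, which breaks down hydrogen peroxide, ran the other way, with 49.8, 42.02, 38.3 and 41.1 CPM in RMF libraries, against 48.3, 52.8 and 55.9 CPM in sham libraries (-0.29). Of 23 iron genes 17 had a higher mean with a median of 0.07, and without sham 4 there were 11 higher and 12 lower with a median of 0.00. Ftl1, the light chain of the iron store ferritin, had 153, 137, 145 and 142 CPM in RMF libraries, against 116, 108 and 83.0 CPM in sham libraries. Its log2 difference was 0.49 and, without sham 4, 0.36 (edgeR adjusted p = 0.72; DESeq2 adjusted p = 0.0828). Glycolysis and citric acid cycle genes had a median of 0.05 with 23 of 32 higher, and of 0.01 with 18 of 32 higher without sham 4. Mdh2, the mitochondrial malate dehydrogenase, had 174, 178, 185 and 195 CPM in RMF libraries, against 167, 169 and 136 CPM in sham libraries (0.22, and 0.12 without sham 4).

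**Figure D2:**
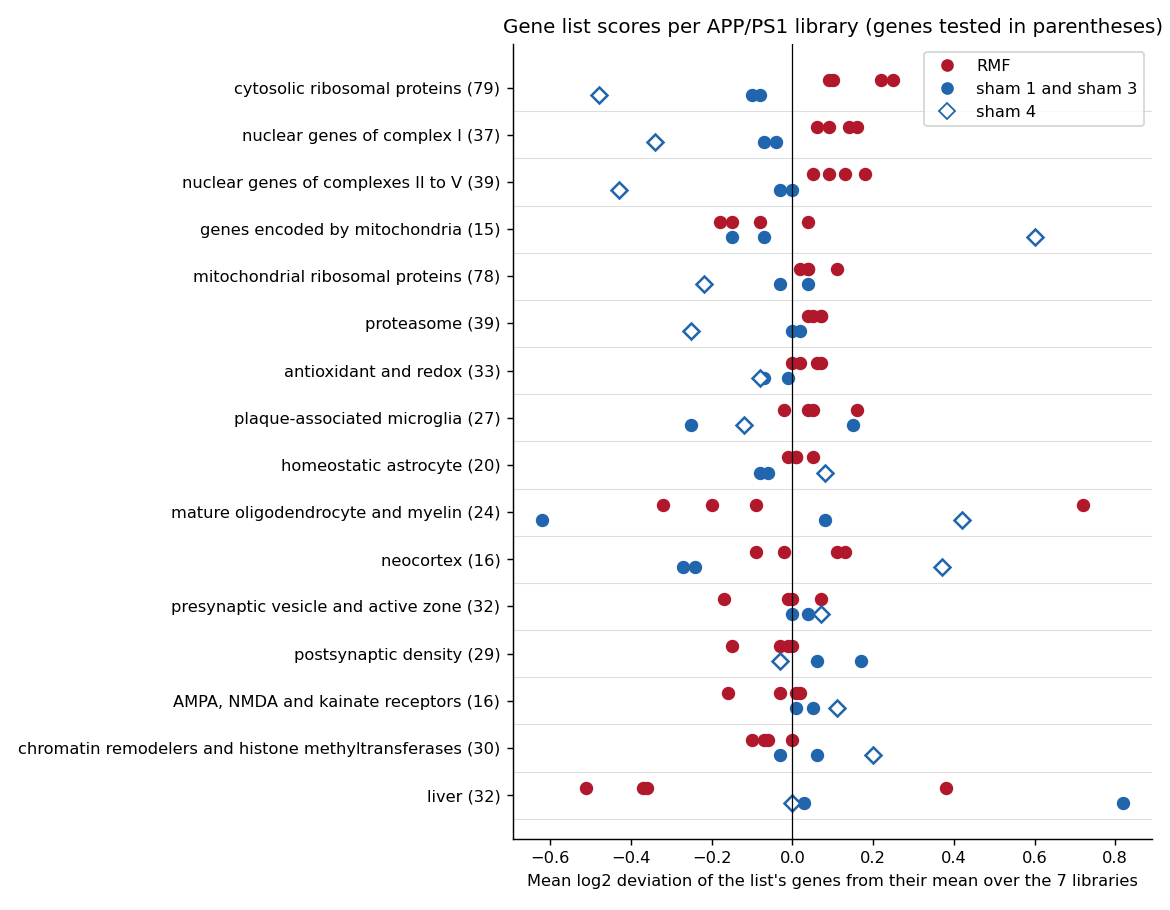
Mean log2 deviation of the tested members of 16 gene lists from their mean over the 7 APP/PS1 libraries, 1 point per library, with the RMF points drawn in the upper line of each list and sham 4 as an open diamond. For cytosolic ribosomal proteins the RMF libraries score 0.09 to 0.25 and the sham libraries -0.08, -0.10 and -0.48, and myelin scores span 0.72 to -0.32 in RMF libraries and -0.62 to 0.42 in sham libraries.

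Most synaptic genes had a lower mean in RMF, by small amounts, while the list scores of the groups overlapped. Synapses release transmitter from vesicles at an active zone and receive it at a postsynaptic density of receptors and scaffolds. Of 29 postsynaptic scaffold and kinase genes 27 had a lower mean in RMF, with a median of -0.11 (-0.17 without sham 4). All RMF libraries lay below in 9, where 4.72% of all genes did so, and above in 0; without sham 4 they lay below in 16, where 9.9% did so. At an edgeR p under 0.05, 2 were lower (2.68% of all genes) and 0 higher (4.21%). The list's score was -0.15, 0.00, -0.03 and -0.01 in RMF libraries and 0.17, 0.06 and -0.03 in sham libraries, an overlap. Summed levels overlapped too, with 14863 to 15692 CPM in RMF libraries and 17935, 16873 and 14808 CPM in sham 1, 3 and 4. General neuronal and dentate granule cell markers, described further on, also had medians of -0.11. Dlg2, a scaffold of the postsynaptic density, had 342, 393, 369 and 334 CPM in RMF libraries, against 401, 412 and 438 CPM in sham libraries (-0.21). Camk2a, the alpha subunit of the calcium-calmodulin kinase of plasticity, had 3300 to 3506 CPM in RMF libraries, against 3991, 4060 and 3460 CPM in sham libraries (-0.17). Dlg4, encoding PSD-95, differed by 0.00, and by -0.09 without sham 4.

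Of 32 presynaptic genes 25 had a lower mean in RMF, with a median of -0.11 (-0.10 without sham 4). All RMF libraries lay below in 6 (4.72% of all genes) and above in 1 (5.93%). Without sham 4 they lay below in 12 (9.9% of all genes) and above in 3 (10.8%). The list's score was -0.17, 0.00, 0.07 and -0.01 in RMF libraries and 0.00, 0.04 and 0.07 in sham libraries, an overlap. Summed levels were 14896 to 17154 CPM in RMF libraries and 17442 to 17934 CPM in sham libraries. Pclo, the large scaffold piccolo of the active zone, had 341, 419.6, 404 and 350.3 CPM in RMF libraries, against 428, 452 and 539 CPM in sham libraries (-0.32, edgeR adjusted p = 0.72). Snap25, of the fusion machinery, had 1805 to 2000 CPM in RMF libraries, against 2163, 2076 and 2351 CPM in sham libraries (-0.19). Sv2a, a vesicle glycoprotein, was higher, at 324, 337, 356 and 354 CPM in RMF libraries, against 307, 305 and 285 CPM in sham libraries (0.20, edgeR adjusted p = 0.72).

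Ionotropic glutamate receptor genes had a lower mean in 15 of 16 with a median of -0.08, and without sham 4 in 10 of 16 with a median of -0.10. Grik2, a kainate receptor subunit, had 94.3 to 106 CPM in RMF libraries, against 110.2 to 116 CPM in sham libraries (-0.20). GABA-A receptor genes split 5 higher and 7 lower with a median of -0.09, or 0.03 without sham 4, and Gabrg3 differed by -0.38, or -0.18 without sham 4. Of 36 calcium channel and handling genes 24 had a lower mean (median -0.07), and Cacna1a, the P/Q-type channel, had 174, 195, 204 and 195 CPM in RMF libraries, against 218, 230.2 and 237 CPM in sham libraries (-0.25, edgeR adjusted p = 0.72). Sodium and potassium channel genes had 22 of 26 lower with a median of -0.10, and 14 of 26 lower with a median of -0.03 without sham 4. Scn4b, an auxiliary sodium channel subunit, was higher, at 40.2 to 45.5 CPM in RMF libraries, against 27.1, 23.6 and 43.7 CPM in sham libraries. Sham 4 lay in the RMF range, so the log2 difference was 0.44 with it and 0.75 without it. Of 16 neurotrophin genes 11 were lower (9 without sham 4), and Bdnf differed by -0.02, or -0.08 without sham 4. Sorcs3, a sortilin-type receptor that binds neurotrophins, had 43.4 to 49.1 CPM in RMF libraries, against 39.1 to 40.0 CPM in sham libraries (0.24). Chromatin regulators, most of them long transcripts, were lower in 28 of 30 with a median of -0.13, and -0.06 without sham 4; Kmt2a, a histone H3 lysine methyltransferase, had 267 to 320.4 CPM in RMF libraries, against 328 to 363 CPM in sham libraries (-0.18).

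The ribosomal and respiratory lists hold short transcripts and the postsynaptic and chromatin lists long ones. The difference was therefore set against the length behind the deposited FPKM values, inferred from the ratio of count to FPKM. It is a length per gene and need not be that of the transcripts present in this tissue. Median length was 1768 bases in the ribosomal list, 8880 in the postsynaptic list, 14156 in the chromatin list and 4066 over all genes. Mitochondrially encoded genes, with a median of 953 bases, and liver genes, with 1604, had median log2 differences of -0.25 and -0.72. Without sham 4 these were 0.02 and -0.86. Across genes, which are not independent replicates, the log2 difference had a Spearman correlation with length of -0.20, and -0.09 without sham 4. Genes were split by length into 10 bins of equal size. The median log2 difference was 0.08 in the second shortest bin and -0.07 in the longest, and 0.04 and -0.03 without sham 4. All RMF libraries lay below all sham libraries for 11.6% of genes of the longest bin and 2.77% of the second shortest. Sham 4 had median deviations of -0.16 in the second shortest bin and 0.12 in the longest, the widest such span of the 7 libraries, and its values run opposite to those of RMF 4. After removal of each library's trend with this inferred length the correlation was 0.04. The list medians were then 0.29 for ribosomal proteins, 0.19 for complex I, 0.14 for complexes II to V, -0.10 for postsynaptic genes and -0.05 for chromatin regulators. With sham 4 also left out they were 0.18, 0.11, 0.07, -0.15 and -0.03 in the same order. The part of RNA quality in these differences was not tested.

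**Figure D3:**
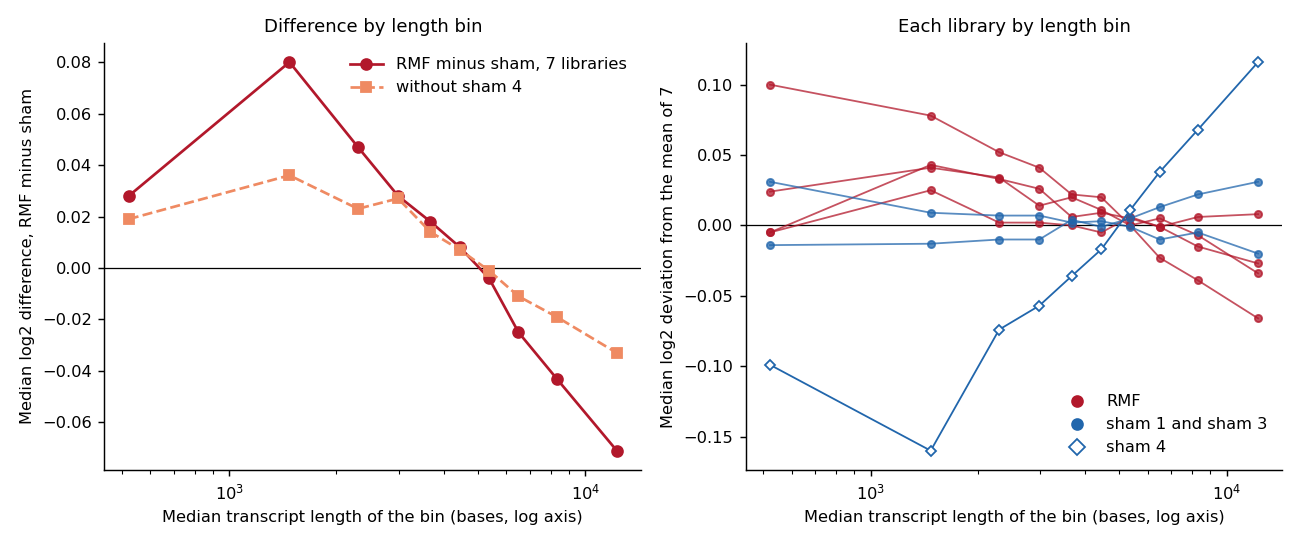
Left, median log2 difference of RMF over sham by bin of transcript length, with all 7 libraries and without sham 4. Right, each library's median log2 deviation by bin of length. The line with all libraries runs from 0.08 in the second shortest bin to -0.07 in the longest, and without sham 4 from 0.04 to -0.03, and sham 4 has the steepest line of its own.

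Amyloid genes differed little between RMF and sham. App, the amyloid precursor protein gene, had 3199, 3371, 3588 and 3388 CPM in RMF libraries, against 2960, 3621 and 3669 CPM in sham libraries, with WT at 1592 ± 32.5 CPM. RMF values lay inside the sham range, and the log2 difference was -0.01, or 0.04 without sham 4. Bace1, the beta-secretase, differed by -0.01. Aph1a, a gamma-secretase subunit, had 40.9, 38.2, 35.5 and 36.1 CPM in RMF libraries, against 34.2, 31.3 and 30.7 CPM in sham libraries (0.23, edgeR adjusted p = 0.72). The 10 secretase genes had a median of 0.02, with 6 higher and 4 lower, and the 15 genes of amyloid clearance also 0.02, with 10 higher and 5 lower. Both medians were 0.04 without sham 4. Ide, a protease that cuts amyloid-beta, differed by -0.16, and by -0.09 without sham 4. Cst3, a cystatin that binds amyloid-beta, had 783, 736, 705 and 919.6 CPM in RMF libraries, against 643, 683 and 505 CPM in sham libraries (0.36, edgeR adjusted p = 0.72). Tau and its kinases were lower in 12 of 17, with a median of -0.06.

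Plaque-associated microglial genes had higher means in 19 of 27, with a median of 0.08. All RMF libraries lay above in 1 of them (5.93% of all genes) and below in 0 (4.72%). Their score was -0.02, 0.04, 0.16 and 0.05 in RMF libraries and -0.25, 0.15 and -0.12 in sham libraries, so the groups overlapped. Trem2, the lipid receptor of microglia, had 25.9, 32.9, 32.8 and 31.4 CPM in RMF libraries, against 20.8, 30.8 and 19.5 CPM in sham libraries (0.38, and 0.25 without sham 4, edgeR adjusted p = 0.726). Cst7, a cystatin of plaque-associated microglia, had 13 to 19.2 CPM in RMF libraries, against 8.91, 19.6 and 11.3 CPM in sham libraries, an overlap (0.29, and 0.18 without sham 4). Lgals3, a galectin, had 2.13, 4.10, 4.15 and 3.93 CPM in RMF libraries, against 1.95, 2.12 and 2.14 CPM in sham libraries (0.79, edgeR adjusted p = 0.722), where RMF 1 lay inside the sham range.

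Homeostatic microglial genes had a median of 0.06 with 12 of 18 higher, and Tmem119, a surface protein of microglia, had 19.9 to 21.4 CPM in RMF libraries, against 17.9, 18.6 and 14.2 CPM in sham libraries (0.29, and 0.17 without sham 4). P2ry12, the purinergic receptor, differed by -0.16. General microglial markers had a median of 0.02, and -0.03 without sham 4. Complement genes had 8 of 15 higher and a median of 0.01, and 6 of 15 higher and a median of -0.07 without sham 4. C3, the central complement component, was lower, at 12.1, 10.1, 11.6 and 10.2 CPM in RMF libraries, against 19.2, 15.1 and 14.3 CPM in sham libraries and 2.39 CPM on average in WT. Its log2 difference was -0.56 ± 0.19 (SE, edgeR adjusted p = 0.72). C1qa and C1qb, chains of the initiating complex, differed by -0.01 and 0.25. Liver makes C3 as well, and its values are set beside other liver genes further on.

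The MHC, interferon and cytokine lists had medians of 0.15, 0.13 and 0.00, with 7 of 11, 10 of 14 and 8 of 17 genes higher. Without sham 4 these medians were 0.06, 0.25 and 0.03. Il18, an inflammasome cytokine, differed by 0.36. Lysosomal genes had 18 of 27 higher (median 0.06), with all RMF libraries above in 3 (5.93% of all genes). Without sham 4 they lay above in 6 (10.8% of all genes). Ctsl, a lysosomal cysteine protease, had 89.0, 81.6, 85.0 and 84.2 CPM in RMF libraries, against 77.9, 73.0 and 63.6 CPM in sham libraries (0.25, edgeR adjusted p = 0.72). Autophagy genes had 17 of 27 higher (median 0.05, and 0.01 without sham 4), and Map1lc3b, of the autophagosome membrane, had 183 to 189.5 CPM in RMF libraries, against 160.1 to 167 CPM in sham libraries (0.18).

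Reactive astrocyte genes had 9 of 14 higher (median 0.07), and Gfap had 823, 878, 785 and 838 CPM in RMF libraries, against 640.2, 968 and 661 CPM in sham libraries, an overlap (0.14, and 0.04 without sham 4). Among 20 homeostatic astrocyte genes all RMF libraries lay above in 5 (5.93% of all genes) and below in 0 (4.72%), with a median of 0.06 that was 0.10 without sham 4. S100b, a calcium-binding protein of astrocytes, had 73.6, 67.0, 66.5 and 70.3 CPM in RMF libraries, against 57.7, 58.4 and 54.2 CPM in sham libraries (0.29, edgeR adjusted p = 0.72). Endothelial genes had 10 of 19 higher (median 0.11), and pericyte and smooth muscle genes 3 of 12 (-0.04, and -0.06 without sham 4).

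Myelin genes varied more within groups than between them. Their score was 0.72, -0.20, -0.09 and -0.32 in RMF libraries and -0.62, 0.08 and 0.42 in sham libraries, and the list's median log2 difference was 0.05 with all libraries, 0.29 without sham 4 and -0.20 without sham 1. Mbp had 4778, 2458, 2647 and 2381 CPM in RMF libraries, against 2099, 3412 and 4163 CPM in sham libraries. Without sham 4 all 24 myelin genes had a higher mean in RMF, and with all libraries 14 did. No myelin gene separated the groups in either set, and oligodendrocyte precursor genes were higher in 9 of 16 (11 without sham 4). Tnr, a matrix glycoprotein of perineuronal nets, had 204 to 246 CPM in RMF libraries, against 261 to 279.7 CPM in sham libraries (-0.32).

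General neuronal markers were lower in 11 of 16 (median -0.11, and -0.07 without sham 4) and dentate granule cell markers in 14 of 16 (-0.11). Rbfox3, which encodes the neuronal nuclear antigen NeuN, had 185, 179, 192 and 196 CPM in RMF libraries, against 235, 199 and 232 CPM in sham libraries (-0.24, edgeR adjusted p = 0.72). Neurod1, a factor of granule neurons, had 18.2 to 21.8 CPM in RMF libraries, against 23.4 to 31.8 CPM in sham libraries (-0.43). Pcp4, which marks CA2 among other neurons, had 36.5 to 47.6 CPM in RMF libraries, against 26.9 to 35.4 CPM in sham libraries (0.37). CA1, CA2 and CA3, and interneuron markers had medians of -0.04, -0.07 and -0.04, which were 0.03, -0.19 and 0.01 without sham 4. Adult neurogenesis genes were lower in 7 of 10 (-0.12).

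Immediate early genes had a median of -0.02 with 13 of 30 higher, and Fos and Arc differed by -0.01 and -0.08, or 0.04 and -0.18 without sham 4. Clock genes split 11 and 11 with a median of 0.01; of the cryptochromes, whose homologues are studied in animal magnetoreception, Cry1 differed by 0.13 and Cry2 by -0.04, or 0.06 and -0.08 without sham 4. Cholesterol synthesis had a median of -0.02 (0.03 without sham 4), the Bcl2 family -0.02 (-0.01) and splicing factors -0.03 (-0.04). Genes of the unfolded protein response, which senses misfolded protein in the endoplasmic reticulum, were lower in 15 of 23 with a median of -0.04. Without sham 4, 18 of 23 were lower with a median of -0.09, and all RMF libraries lay below in 7 (9.9% of all genes). Heat shock genes had a median of -0.08 with 16 of 23 lower. Without sham 4 it was -0.10 with 19 of 23 lower, 4 of them at an edgeR p under 0.05 (1.79% of all genes). Stip1, a co-chaperone of Hsp70 and Hsp90, had 165 to 187 CPM in RMF libraries, against 193 to 219.8 CPM in sham libraries (-0.23, edgeR adjusted p = 0.72). Hspa1a, the inducible Hsp70, had 21.5 to 32.0 CPM in RMF libraries, against 70.8, 36.3 and 18.4 CPM in sham libraries, where sham 1 and sham 4 lay at the ends (-0.61, and -0.97 without sham 4).

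In several genes RMF libraries lay above sham 1 and sham 3, while sham 4 lay with or above the RMF libraries. Tshz2, a zinc finger factor of neocortical neurons, had 96.4, 122, 153 and 129.5 CPM in RMF libraries, against 44.03 and 39.9 CPM in sham 1 and sham 3, and 193 CPM in sham 4. Sham 4 was the highest of the 7, so the log2 difference was 0.44 with it and 1.58 without it (DESeq2 adjusted p = 4.55e-07 without it). WT libraries, at 70.3, 89.0, 91.7 and 51.1 CPM, lay between sham 1 and 3 and the RMF libraries.

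Slc17a6, the vesicular glutamate transporter VGLUT2, had 36.6, 35.8, 52.3 and 43.3 CPM in RMF libraries, against 21.7, 19.5 and 51.4 CPM in sham 1, 3 and 4 (0.45, and 1.03 without sham 4). Rxfp1, a relaxin receptor, had 25.9, 40.4, 47.5 and 65.3 CPM in RMF libraries, against 15.5, 16.4 and 59.0 CPM in sham libraries (0.57, and 1.49 without sham 4). Vwc2l, a secreted protein with von Willebrand factor C domains, had a log2 difference of 0.52 with sham 4 and 1.18 without it, and Hs6st2, a heparan sulfate sulfotransferase, 0.36 and 0.61. Mcm9, of a DNA repair helicase, had 9.35 to 12.9 CPM in RMF libraries, against 6.41, 6.23 and 16.2 CPM in sham libraries, a log2 difference of 0.20 that was 0.80 without sham 4.

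DESeq2 without sham 4 called all 6 of these genes, and among others Nxph3, Eps8l1, Cox6b1 and Gpld1. Sham 4 lay inside or above the RMF range for Tshz2, Slc17a6, Rxfp1, Vwc2l, Hs6st2, Mcm9, Nxph3 and Eps8l1, and below it for Cox6b1 and Gpld1 (28.9 and 38.5 CPM). Neocortex markers, whose list scored -0.09, -0.02, 0.13 and 0.11 in RMF libraries, scored -0.24, -0.27 and 0.37 in sham 1, 3 and 4. That list had a median log2 difference of 0.00 with sham 4 and 0.21 without it. The part of dissection in these differences was not tested. Genes lower in RMF without sham 4 included Sox21, a transcription factor, with 6.86 to 7.45 CPM in RMF libraries, against 12.97, 9.10 and 7.20 CPM in sham 1, 3 and 4 (-0.46, and -0.64 without sham 4), and P4ha1, a collagen prolyl hydroxylase, with 64.1 to 73.5 CPM in RMF libraries, against 97.9, 81.0 and 64.8 CPM (-0.22, and -0.36 without sham 4).

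**Figure D4:**
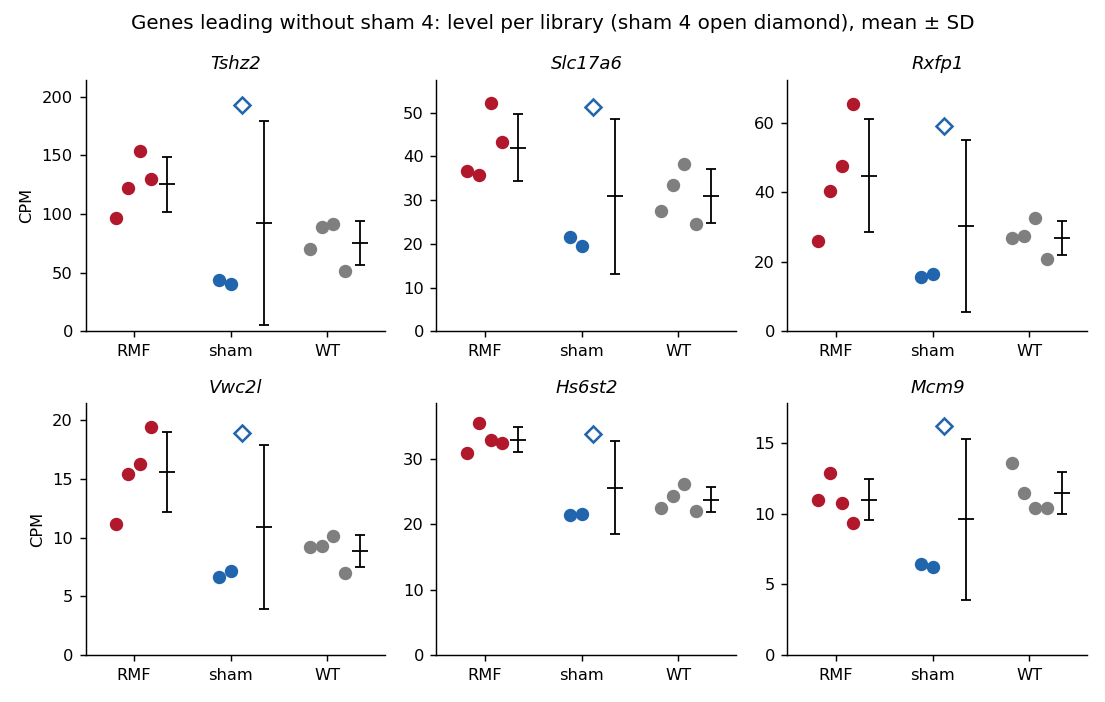
Level in CPM of Tshz2, Slc17a6, Rxfp1, Vwc2l, Hs6st2 and Mcm9 in each RMF, sham and WT library, with group mean and SD. The open diamond, sham 4, lies in or above the RMF range in each gene, and sham 1 and sham 3 lie below all RMF points.

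Transcripts typical of other organs were present in APP/PS1 libraries, and those of liver lay lower in RMF than in sham without an edgeR call. Alb, the liver's plasma albumin, had 109.5, 55.5, 58.3 and 54.7 CPM in RMF libraries, against 219, 148 and 148 CPM in sham libraries and 7.59 ± 6.53 CPM in WT. The RMF and sham values did not overlap, but the spread over all groups was wide, and the log2 difference was -1.31 ± 0.71 (SE, edgeR adjusted p = 0.763). Cyp2e1, a hepatic cytochrome P450, had 9.23, 6.09, 5.25 and 4.76 CPM in RMF libraries, against 20.1, 10.1 and 11.3 CPM in sham libraries and 1.17 CPM in WT (-1.13, edgeR adjusted p = 0.72).

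Of 32 liver genes tested, 25 had a lower mean in RMF, all RMF libraries lay below in 8 and above in 0, and the median was -0.72, against 4.72% of all genes below and a median of 0.00. It was -0.86 without sham 4 and -0.37 without sham 1. The sum of 31 listed liver genes, tested or not, leaving out Trf and Ttr, which brain cells also make (a choice made after the values were seen), was 309.8, 189, 190.2 and 174.4 CPM in RMF libraries, against 514.5, 329.5 and 320.3 CPM in sham libraries, and 23.58 to 57.4 CPM in WT libraries. With Trf and Ttr included, the sum of all 33 was 918.9, 479.9, 512.8 and 442.6 CPM in RMF libraries, against 745.1, 678.4 and 723.2 CPM in sham libraries and 182.3 to 564.4 CPM in WT libraries. RMF 1 was then the highest library, and the groups overlapped. Within both APP/PS1 groups replicate 1 was the highest. C3 was also highest in replicate 1 of each group, with 19.2 CPM in sham 1 and 12.1 CPM in RMF 1. The part of liver RNA in the C3 values was not tested. Intestinal genes were lower in 10 of 12 with a median of -0.41 and no separation of the groups. Lypd8, of the intestinal epithelium, had 6.33 to 11.5 CPM in RMF libraries, against 10.7 to 12.3 CPM in sham libraries and 0 in WT. Kap, of the kidney, had 8.10 to 20.01 CPM in RMF libraries, against 8.20 to 10.8 CPM in sham libraries. Tnnc2, of fast skeletal muscle, had 11, 0, 3 and 0 counts in RMF libraries and 0 counts in all sham libraries. Unlike the liver genes, it was higher in the WT libraries, at 75, 121, 189 and 112 counts. The sum of 20 skeletal muscle genes averaged 95.6 CPM in RMF, 93.4 CPM in sham and 171 CPM in WT libraries.

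**Figure D5:**
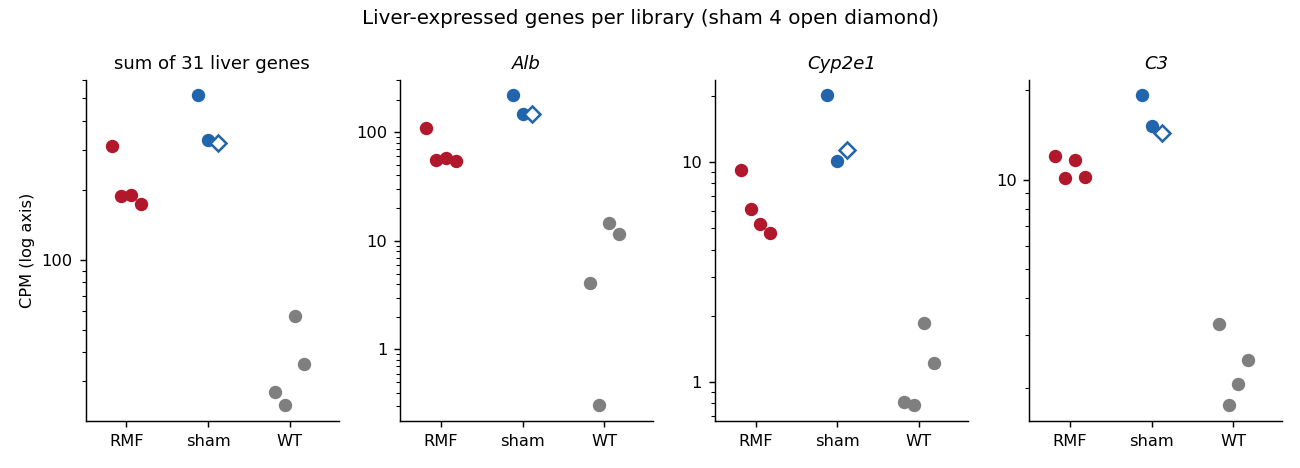
Level in CPM, on a log axis, of the sum of 31 liver genes, Alb, Cyp2e1 and C3 in each RMF, sham and WT library. In all 4 panels the RMF points lie under the sham points and above the WT points.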

How the data were processed

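Counts per gene and library, whole and not normalized, and FPKM values were deposited by the authors for 36826 genes. The deposited FPKM values served only to select genes and infer transcript length. Per the labels' protocols, reads were trimmed with Cutadapt 1.9, and StringTie 1.3.4d, HISAT2 2.0.4 and edgeR appear in the submitters' processing notes. Those notes list only a human build; for mouse, none is given in these sources. Table coordinates did not match GRCm38 (349 of 14227 matched genes shared a start), and are printed as deposited. Neither the counter nor its strand setting is given, so overlapping and antisense genes, pseudogenes and near-identical copies are uncertain. A further 2 value columns, counts and FPKM headed as another sham replicate, matched no sample and were not used.

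The test was edgeR 4.0.16 quasi-likelihood (R 4.3.3) with TMM on all 11 libraries in 3 groups, without covariates, and Benjamini-Hochberg adjustment over 14428 genes at 0.05. DESeq2 1.42.0 and voom of limma 3.58.1 were alternatives. The script was tested on simulated data. SE values come from the F statistic. Replicate counts differed by more than sampling noise in every pair (chi-square per degree of freedom 18.6 to 184), so each library counted once. The counting interval of the unnamed gene covers counting error only. That of the median gene comes from the SE of the edgeR fit and so includes variation between libraries. List scores are mean log2 deviations of CPM plus 0.1.

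Genes named are the 12 of smallest edgeR p in each direction, those called by DESeq2, the first 2 symbols and the extreme members of 59 lists (35 pathway, 24 marker), and the 8 of smallest p in each direction without sham 4. A few of these are not reported here. Genes shown outside that rule were chosen after their values were seen. The comparison and lists were chosen with earlier results of these data known.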

Additional observations from a re-analysis of the deposited data

Results flagged for a closer look

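A value was singled out where the highest or lowest of the 4 RMF libraries lay far from the other 3 by Dixon's criterion at the 95% level. This held for 23 of 292 values, 18 genes and 5 lists, and chance gives about 1 in 20. RMF 1 was the library apart in 11, RMF 4 in 8, RMF 2 in 3 and RMF 3 in 1.

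In RMF 1 the myelin genes stood high, with Mbp at 4778 CPM (others 2381 to 2647) and Bcas1, an oligodendrocyte gene, at 329.9 (162.4 to 182.5). Also high in RMF 1 were Vim, an intermediate filament gene, at 60.32 CPM (43.68 to 45.76), Fth1, the ferritin heavy chain, at 2090 (1585 to 1670), Cp, ceruloplasmin, at 18.23 (12.61 to 13.41), Mrpl1 at 15.2 (13.44 to 13.7) and Alb at 109.5 (54.69 to 58.3). Lgals3 at 2.13 CPM (3.931 to 4.151) and Hspe1, the Hsp10 chaperonin, at 16.06 (18.94 to 19.23) were low there. Its liver score was 0.38 (others -0.51 to -0.36) and its unfolded protein response score 0.06 (others -0.02).

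In RMF 4 Cox6b1 was high at 51.1 CPM (47.69 to 48.16). Low there were Dynlt3 at 110.7 CPM (127.1 to 127.9), Etv1 at 104.1 (138.5 to 140.1), Bok at 41.51 (49.88 to 50.33), Gabrg3 at 19.93 (24.13 to 24.95) and Hdac4 at 38.9 (44.62 to 45.75). Its lysosome score was 0.0 (others 0.04 to 0.05) and its pericyte score -0.13 (0.03 to 0.06). In RMF 2 Asnsd1 was at 15.26 CPM (14.25 to 14.38), Kap at 20.01 (8.096 to 9.463) and the heat shock score at 0.04 (-0.08 to -0.07). In RMF 3 Prnp, the prion protein gene, was at 1554 CPM (1473 to 1481). Asnsd1, Cox6b1 and Dynlt3 still separated RMF from sham in every library, Mbp and Lgals3 did not, and Alb did.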

How the results depend on the processing

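Alternatives changed how many genes were called more than the direction of single genes. DESeq2 called 16 genes with all libraries and 11 without sham 4, and edgeR called 1 without sham 1 and 0 in each other setting run, as did limma voom. That gene, named after its values were seen, was Ppia, the cyclophilin A gene, with 477, 422, 459 and 362 CPM in RMF libraries and 444, 139.7 and 162 CPM in sham libraries (edgeR adjusted p = 0.00369 without sham 1). Leaving out single libraries gave 0 to 1 called genes and 588 to 1657 genes at an unadjusted edgeR p under 0.05, lowest without sham 4 and highest without WT 3. That number was 1691 without a filter on low values, 1504 for RMF and sham libraries alone without sham 4, 598 with the length trend removed and sham 4 left out, 658 in DESeq2 without sham 4 and 2059 in limma voom with library weights, against 994. Genes whose RMF and sham libraries did not overlap were 2993 without sham 4, against 1536; the cause was not tested beyond the smaller number of sham libraries. Mcm9 turned to -0.03 without sham 1 and -0.04 without sham 3, against 0.20, and the cause was not tested; without sham 4 it was 0.80. Over 21 settings, 4868 of the values of named genes kept their direction and side of the threshold or moved little, 24 newly passed it, 58 moved and 2 turned sign.

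Replicate numbers did not pair the samples: deviations of same-numbered RMF and sham libraries correlated at -0.20, 0.07 and -0.13 for numbers 1, 3 and 4. With the replicate number as a block, edgeR called 0 genes, with 958 at p under 0.05 over all libraries and 768 over the 6 numbered libraries. DESeq2 without sham 4 and the removal of the length trend without sham 4 were chosen after seeing the data. With 4 and 3 libraries, the 95% interval of the median gene reached 0.31 to either side on the log2 scale, and the width differed between genes.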

Other observations

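With the fit restricted to the 7 RMF and sham libraries, edgeR called no gene at 0.05 and found 3 under an adjusted p of 0.1, which were looked at after their values were seen. Cdc14b, a cell cycle phosphatase, had 6.97, 7.36, 6.55 and 6.56 CPM in RMF libraries, against 14.3, 12.8 and 15.2 CPM in sham libraries (adjusted p = 0.0626 in that edgeR fit). The WT libraries held 12.3, 5.71, 16.1 and 5.32 CPM, which covered both APP/PS1 groups. Ahsg, the liver plasma protein fetuin-A, had 5.65, 3.26, 3.80 and 2.83 CPM in RMF libraries, against 20.2, 14.2 and 12.8 CPM in sham libraries (adjusted p = 0.0906 in that edgeR fit). The third was ENSMUSG00002074930 (adjusted p = 0.0598 in that edgeR fit).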
